A study of Mus musculus with 9 samples.

Results

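The extracellular matrix genes other than collagens are described here across Cebpb-ko MEFs carrying the empty vector (EV), LAP or LIP. They are 58 genes taken from a list of names that was chosen with earlier results of these data known. All 58 were found among the 23337 gene symbols of the count table. They comprise 13 genes of the basement membrane, 14 of fibronectin and elastic fibres, 4 latent TGF-beta binding proteins, 5 lysyl oxidases, 10 proteoglycans and 12 matricellular proteins. RNA-seq was carried out on 9 libraries, 3 per group, to ask how each protein isoform of the transcription factor C/EBPβ alters mRNA levels.

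All cells were immortalised mouse embryonic fibroblasts (MEFs) of a C57BL/6 x 129 background in which Cebpb is knocked out, the EV controls included. LAP is the long, activating isoform of C/EBPβ, and LIP is the short isoform, which keeps the DNA-binding part but lacks the activating part. Cells of the LAP and LIP groups had been stably transfected with a plasmid for the rat sequence of that isoform and selected with Zeocin, and EV cells with the plasmid alone. Each group is thus a selected population of a single immortalised line, and the labels do not say whether the 3 libraries of a group came from separate cultures. The p-values therefore measure the spread between these libraries, which may be technical. Mouse Cebpb was counted at 28.7 ± 2.97 CPM in EV, 29.6 ± 3.90 CPM in LAP and 31.1 ± 2.59 CPM in LIP (SD, n = 3 each). Because the plasmids carry rat sequence and the position of the deletion was not checked, this gene does not check the groups.

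The extracellular matrix is the protein network that fibroblasts secrete and remodel. Basement membranes are thin sheets of laminins, nidogens and heparan sulphate proteoglycans, while interstitial matrix is built on fibronectin and on elastic fibres, in which elastin is laid down on fibrillin microfibrils and crosslinked by lysyl oxidases. Small leucine-rich proteoglycans bind collagen fibrils, latent TGF-beta binding proteins anchor growth factor in the matrix, and matricellular proteins modulate contacts between cells and matrix without being main structural parts.

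The number of reads counted on genes ran from 24839139 to 33522082 per library. Levels are given as CPM, counts scaled to a common library size by edgeR's TMM method over the 9 libraries, and for comparisons between genes as RPKM, the CPM divided by the length of the gene's merged exons in kilobases. A count of 3, used here as the floor, stood for 0.0895 to 0.121 CPM, and this covers counting error only, because the reads carry no molecular identifiers. Of the 58 genes, 8 (Lama1, Lama3, Loxl4, Lum, Aspn, Thbs4, Comp and Spp1) had a mean below 20 counts, and Thbs4, with at most 3 counts in any library, is given no fold change.

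Per length, the highest level in EV was that of Sparc, a collagen-binding matricellular protein, at 1831 ± 341 RPKM (SD, n = 3). Fn1, which encodes fibronectin, followed at 771 ± 90.9 RPKM, then the proteoglycan Bgn at 557 ± 37.4 RPKM, the lysyl oxidase Lox at 517 ± 31.4 RPKM and the matricellular thrombospondin Thbs1 at 404 ± 116 RPKM. Values of Bgn and Lox overlapped between libraries, as did those of Lox and Thbs1. The same 5 genes led in LIP, where Sparc was at 1106 ± 414 RPKM, Fn1 at 637 ± 247 RPKM, Bgn at 345 ± 161 RPKM, Thbs1 at 290 ± 207 RPKM and Lox at 257 ± 102 RPKM (SD, n = 3 each). Each of them overlapped with its neighbour in this order. In LAP, Sparc was at 1954 ± 499 RPKM and Fn1 at 672 ± 230 RPKM (SD, n = 3 each).

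The 58 genes together took 3.83%, 3.37% and 3.13% of all counts in the EV libraries 1, 2 and 3, 4.26%, 2.38% and 3.01% in LAP, and 3.26%, 1.77% and 2.37% in LIP. The 5 most abundant genes of each library made up 67.6% to 74.7% of these counts. Values of LIP overlapped with those of both other groups. The share was 2.46% ± 0.748 in LIP and 3.44% ± 0.358 in EV (SD, n = 3 each, p = 0.2, exact permutation, 2-sided, where 0.1 is the lowest p possible). Against LAP, at 3.22% ± 0.957, the same exact permutation test gave p = 0.4 for LIP and p = 0.8 for EV (SD, n = 3).

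**Figure D1:**
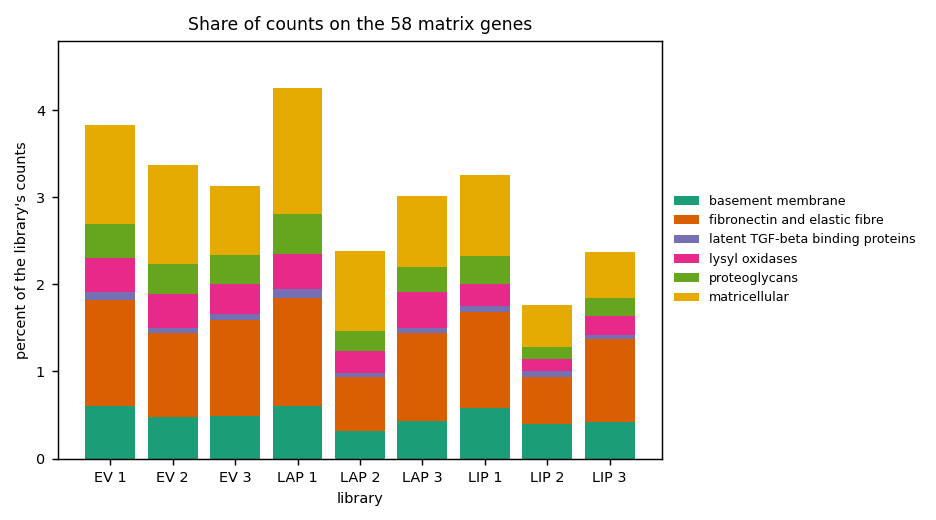
Percent of each library's counts that fell on the 58 matrix genes (y axis) in the 9 libraries (x axis), stacked by role. LAP 1 reached 4.26% and LIP 2 held 1.77%, and within every group the library numbered 1 had the highest bar.

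The library numbered 1 was the highest of its group for 41 of the 58 genes in EV, 47 in LAP and 40 in LIP. Among the 11535 genes of the table with a mean of at least 20 counts, it was the highest for 28.4%, 28.8% and 31.9%. The sources used here do not say whether same-numbered libraries were prepared together. The map of all genes by library shows this as darker red columns for EV 1 and LAP 1, and as the palest of the blue LIP columns for LIP 1.

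**Figure D2:**
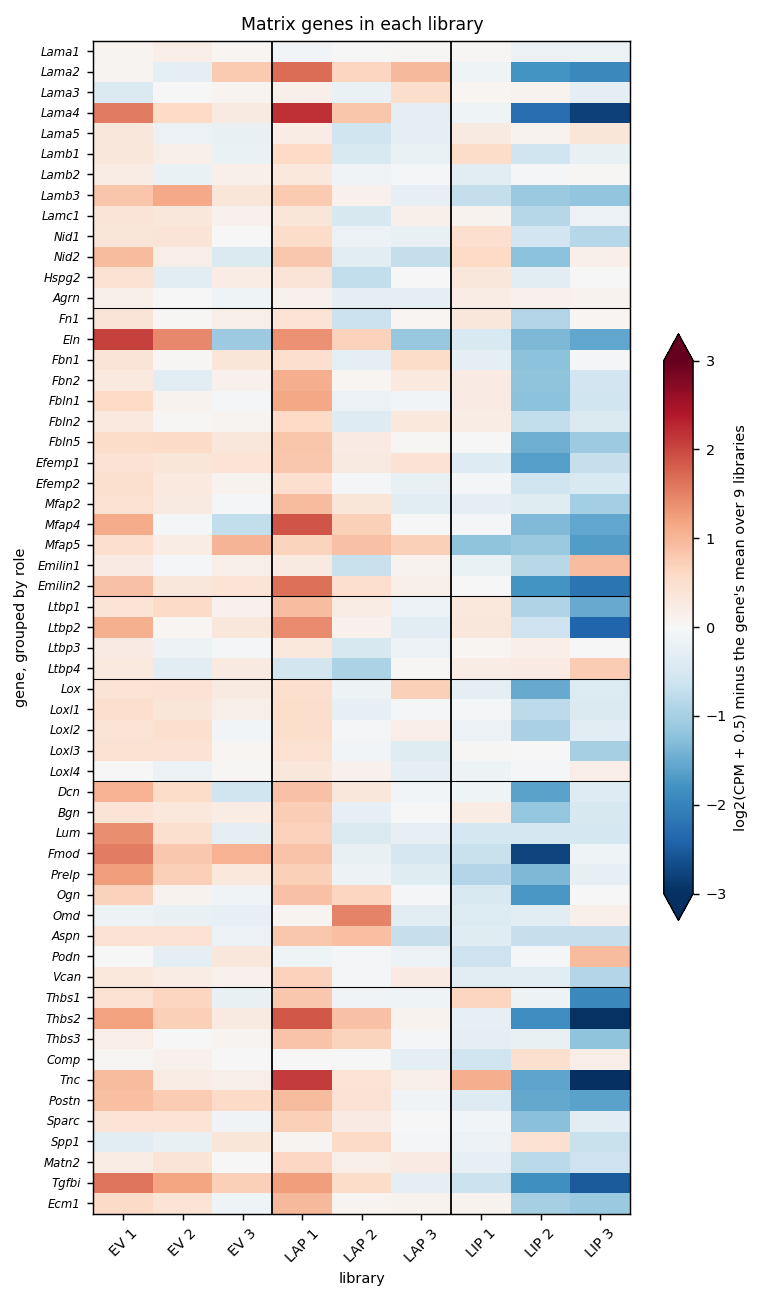
Each row is 1 matrix gene (Thbs4 left out), each column 1 library, and colour gives log2(CPM + 0.5) minus the gene's mean over the 9 libraries, with colours ending at the limits of the scale. Blue prevails in LIP 2 and LIP 3 for genes such as Lama4, Emilin2, Thbs2 and Tgfbi, whereas Lama5, Agrn and Ltbp3 stay pale throughout.

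LIP was compared with EV, and with LAP, to ask which matrix genes differ with the short isoform. The genes that passed the test were lower in LIP in both comparisons, and many more lay below their controls without passing it. In LIP against EV, 4 of the 58 genes were lower and 0 higher past an adjusted p of 0.05 (quasi-likelihood test of edgeR, Benjamini-Hochberg over 18203 genes), beside 0.330% of all genes tested that were lower. These were Lamb3, Mfap5, Postn and Tgfbi, with fitted levels 7.82-fold, 9.99-fold, 5.27-fold and 7.40-fold higher in EV than in LIP. At an unadjusted p under 0.05, 35 matrix genes were lower, beside 6.75% of all genes, and 0 were higher, beside 4.23%. For 26 genes every LIP value lay below every EV value, beside 8.83% of all genes tested. Log2 fold changes lay below 0 for 48 of the 58 genes with a median of -0.74, whereas the median of all genes was 0.04.

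In LIP against LAP, 10 of the 58 genes were lower and 0 higher at an adjusted p under 0.05, beside 0.837% of the 18166 genes tested that were lower. These were the same 4 genes together with Lama2, Lama4, Efemp1, Mfap4, Emilin2 and Thbs2. At an unadjusted p under 0.05, 31 were lower, beside 5.98% of all genes, and 1 was higher, beside 3.30%. For 18 genes every LIP value lay below every LAP value, beside 6.90% of all genes. Here 50 of the 58 genes had a log2 fold change below 0, with a median of -0.95 against 0.02 over all genes. Both comparisons use the same LIP libraries, so they are not independent of each other.

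LIP and LAP libraries of the same number deviated together from their group means, which pairs them by the check described with the methods. With the replicate number as a block, 34 genes were lower and 1 was higher in LIP against LAP at an adjusted p under 0.05, beside 4.79% of all genes that were lower. Adjusted p-values of LIP against LAP named as with the block come from this fit. They draw on variance estimates that edgeR shares across genes as well as on the 3 numbered pairs of each gene. A small value therefore does not measure the spread of those 3 pairs alone, nor show that a gene was lower in every pair. Fold changes and standard errors printed beside these p-values come from the fit without the block, unless the block is named for them. The same block in LIP against EV, where libraries were not taken as paired, gave 19 lower and 0 higher. This stood beside 402 lower of the 18203 genes tested. The genes called without the block only against LAP also passed with it against EV. Their adjusted p was 0.0454 for Lama2, 0.000115 for Lama4, 0.00426 for Efemp1, 0.0161 for Mfap4, 0.000979 for Emilin2 and 0.000112 for Thbs2. Below, values with the block are given by gene for LIP against LAP and not for LIP against EV. Their absence against EV is therefore not a weaker result. The counts of calls depended on the genes tested: with edgeR's filterByExpr, which kept 52 of the 58 genes, 0 passed in either comparison, while 23 in LIP against EV and 24 in LIP against LAP had an unadjusted p under 0.05. Every call of the main fit in these comparisons was thus lost with this filter, which is repeated by gene below only for Mfap5. The edgeR exact test called 13 genes in LIP against EV and 8 in LIP against LAP, and DESeq2 called 10 and 9. Leaving out single libraries gave between 1 call (without EV library 2) and 15 calls (without LIP library 1) in LIP against EV, with 10 calls without LIP library 3. In LIP against LAP it gave between 1 call (without LAP library 2 or LIP library 2) and 20 calls (without LAP library 3), with 17 without LIP library 3 and 4 without LAP library 1. Without all libraries numbered 1, an alternative added after seeing the data, 10 and 4 genes were called, all lower. This stood beside 115 lower of 17878 and 18 lower of 17800 genes tested. The medians were -0.93 and -0.82. Shares over all genes are not given here for the exact test, DESeq2, filterByExpr or single libraries left out. Their counts of calls therefore do not separate a change in matrix genes from a change over all genes. The 35 genes at an unadjusted p under 0.05 in LIP against EV became 22 without EV library 1, and the median in LIP against LAP became -0.56 without LAP library 1.

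**Figure D3:**
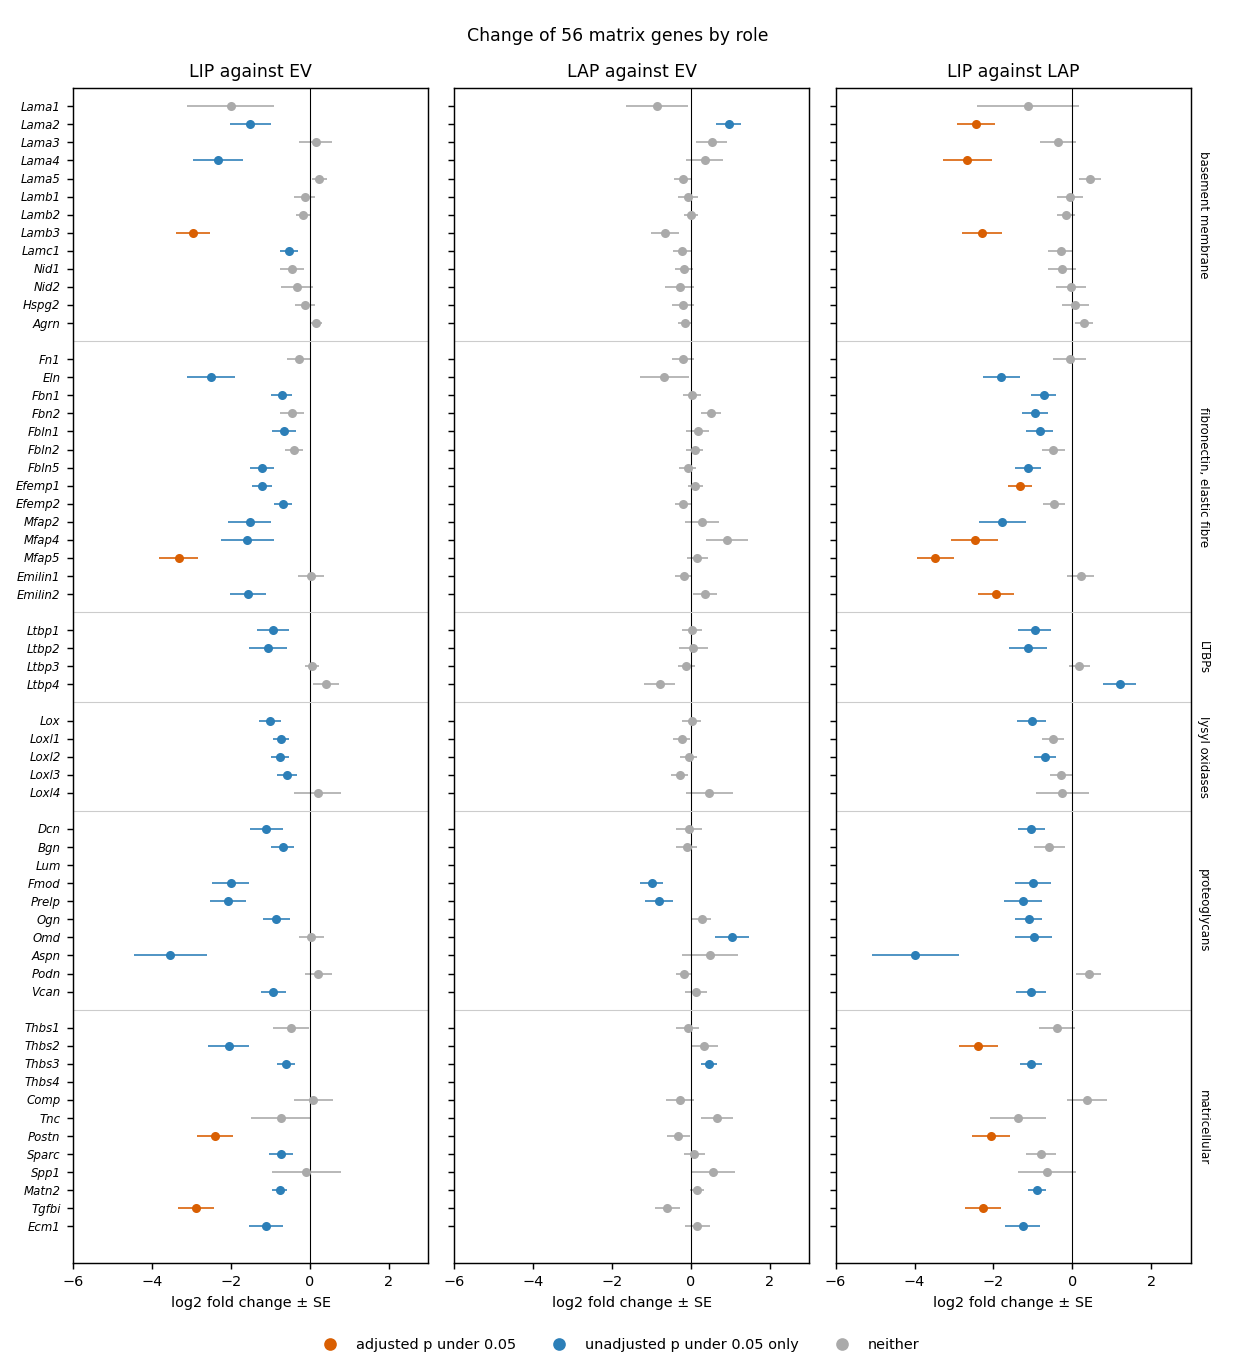
Log2 fold change (x axis, point, with bars for the standard error of the fit) of 56 matrix genes, grouped by role on the y axis, in the 3 comparisons. Lum and Thbs4 are left out because of their counts at or near 0. The cloud of LIP against EV and of LIP against LAP lies left of 0, with medians of -0.74 and -0.95, and that of LAP against EV lies around 0, with a median of -0.06.

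Fibroblast markers summed to less in LIP than in EV. All 10 markers of the list were detected, with a summed level of 25374 to 27938 CPM in EV, 19654 to 31044 CPM in LAP and 10324 to 19895 CPM in LIP, and 1 of the 10 passed the threshold, in LIP against LAP. Most of this sum came from 3 collagen mRNAs, with Col1a1 at a mean of 8139 CPM in EV and 4578 CPM in LIP. Markers other than collagens also had lower means in LIP than in EV. These were Thy1 (264 CPM in EV and 125 CPM in LIP), Twist2 (31.8 and 19), Prrx1 (27 and 14.4), Pdgfra (2.41 and 0.937) and Pdgfrb (1.06 and 0.326). Vim, at 4556 and 4348 CPM, and Twist1, at 50.8 and 49.6 CPM, were close in EV and LIP. Smooth muscle and pericyte markers summed to 1688 to 2752 CPM in EV, 1042 to 3451 CPM in LAP and 764 to 2657 CPM in LIP (6 of 7 detected, Myh11 at 3 counts or fewer). Epithelial markers summed to 951 to 2106 CPM over all libraries (7 of 9 detected, Cldn4 and Esrp1 at 3 counts or fewer), and cartilage and bone markers to 19.1 to 59.0 CPM (5 of 8 detected, Col2a1, Matn1 and Ibsp at 3 counts or fewer). Endothelial, blood cell and adipocyte markers (4 of 7, 5 of 8 and 3 of 6 detected) summed to at most 11.7 CPM in any library, with Pecam1, Tie1, Emcn, Ptprc, Itgam, Cd3e, Adipoq, Plin1 and Cidec at 3 counts or fewer throughout. The part of these markers in the values of matrix genes was not tested. In bulk RNA, fewer cells of a type and less RNA per cell cannot be told apart.

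Promoter sequences are shown for the genes that passed the threshold in both comparisons with LIP, to let the start sites of genes that moved together be compared. The RefSeq table (GRCm38.p6) gave 54 windows, each of 250 bases before and 50 after a start site, for 39 of the 58 genes, and none for Mfap5. Printed are the 250 bases before each listed start site of Lamb3 (chr1:193301744-193301993 and chr1:193301993-193302242, plus strand), Postn (chr3:54359017-54359266 and chr3:54360857-54361106, plus strand) and Tgfbi (chr13:56609336-56609585, plus strand). Capitals mark matches to TTNNGNAA on either strand, a loose form of the palindrome that C/EBP proteins bind.
Lamb3, first start site: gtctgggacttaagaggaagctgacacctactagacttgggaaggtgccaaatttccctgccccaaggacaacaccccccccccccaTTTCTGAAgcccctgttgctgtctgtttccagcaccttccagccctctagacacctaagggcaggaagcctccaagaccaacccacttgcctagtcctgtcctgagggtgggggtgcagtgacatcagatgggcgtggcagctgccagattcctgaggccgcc
Lamb3, second start site: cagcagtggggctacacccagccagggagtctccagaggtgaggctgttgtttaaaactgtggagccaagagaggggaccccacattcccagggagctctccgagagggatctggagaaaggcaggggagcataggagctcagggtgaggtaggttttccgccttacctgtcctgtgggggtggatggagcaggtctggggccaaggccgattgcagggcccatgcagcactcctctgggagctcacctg
Postn, first start site: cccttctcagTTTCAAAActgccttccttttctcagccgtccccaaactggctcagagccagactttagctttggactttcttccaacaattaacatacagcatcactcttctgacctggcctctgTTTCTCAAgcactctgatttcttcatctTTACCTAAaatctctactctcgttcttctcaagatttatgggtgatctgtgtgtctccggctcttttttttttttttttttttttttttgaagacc
Postn, second start site: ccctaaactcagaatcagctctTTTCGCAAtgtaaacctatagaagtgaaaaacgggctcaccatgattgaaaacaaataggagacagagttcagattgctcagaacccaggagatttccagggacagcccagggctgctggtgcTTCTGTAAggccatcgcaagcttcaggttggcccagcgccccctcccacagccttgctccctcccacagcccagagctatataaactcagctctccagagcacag
Tgfbi: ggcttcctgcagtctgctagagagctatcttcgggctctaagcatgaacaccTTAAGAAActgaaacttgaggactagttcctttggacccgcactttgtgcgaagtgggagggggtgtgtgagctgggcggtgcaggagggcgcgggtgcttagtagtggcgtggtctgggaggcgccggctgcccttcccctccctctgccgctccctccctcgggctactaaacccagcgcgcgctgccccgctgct

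Before its first start site Lamb3 held 1 match, at 163 bases, and before its second it held 0. Postn held 3 matches before the first start site, the farthest at 240 bases, and 2 before the second, at 228 and 105 bases. In Tgfbi the match began 198 bases before the start. A TATAAA on either strand lay 26 bases before the second start site of Postn. Over the full windows, TTNNGNAA occurred in 46.3% of those of matrix genes and in 40.7% of the 32851 windows of all genes. The strict palindrome TTGCGCAA occurred in 0 of the 54 windows and in 0.183% of all. TGANTCA, which AP-1 binds, was found in 5.56% against 7.81%, and TATAAA in 14.8% against 13.6%. A match is a description of letters, not of binding.

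Among the 13 basement membrane genes, Lamb3 fell in LIP against EV, and Lamb3, Lama2 and Lama4 fell in LIP against LAP. Without adjustment, 4 were lower in LIP against EV and 3 in LIP against LAP, and 0 were higher. The median log2 fold change was -0.33 and -0.26, nearer to 0 than that of the 58 genes. Laminins are trimers of an alpha, a beta and a gamma chain, and the chains with the highest levels here were not the ones that passed the test.

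Lamb3, the beta chain of laminin-332, lies on chromosome 1 from 193207699 to 193343878 (GRCm38, plus strand) and had 2.30, 2.95 and 1.52 CPM in EV, 2.22, 1.22 and 0.814 CPM in LAP, and 0.449, 0.229 and 0.194 CPM in LIP. Every LIP value lay below every EV and LAP value. Its log2 fold change was -2.97 in LIP against EV (SE 0.426, adjusted p = 0.0135, edgeR quasi-likelihood) and -2.29 in LIP against LAP (SE 0.502, adjusted p = 0.0332). The call against EV was lost without EV library 2 (adjusted p = 0.0751). The call against LAP was lost without LAP library 1 (0.187), LAP library 2 (0.134), LIP library 1 (0.0557) or LIP library 2 (0.0829), and with scaling by total counts (0.0548). Without all libraries numbered 1 it was lost as well (0.272).

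Lama2, the alpha chain of laminin-211, on chromosome 10 from 26980036 to 27619758 (minus strand), had 5.04, 3.80 and 8.58 CPM in EV, 16.2, 7.76 and 9.84 CPM in LAP, and 4.33, 1.02 and 0.872 CPM in LIP. LIP and LAP did not overlap, whereas LIP library 1 lay above EV library 2. The log2 fold change was -2.45 in LIP against LAP (SE 0.480, adjusted p = 0.0189) and -1.51 in LIP against EV (SE 0.528, adjusted p = 0.301). Without LAP library 2 or LIP library 2 the adjusted p against LAP was 0.104 or 0.0519.

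Lama4, the alpha chain of laminins of mesenchymal and vascular basement membranes, on chromosome 10 from 38965515 to 39110188 (plus strand), varied strongly between libraries. It had 31.0, 15.6 and 12.4 CPM in EV, 48.5, 18.5 and 8.32 CPM in LAP, and 9.23, 1.70 and 1.03 CPM in LIP. LIP library 1 exceeded LAP library 3, so only LIP and EV were without overlap. Log2 fold changes were -2.66 in LIP against LAP (SE 0.626, adjusted p = 0.0463) and -2.32 in LIP against EV (SE 0.632, adjusted p = 0.156). The call against LAP was lost with DESeq2 (adjusted p = 0.316), the exact test (0.0620), total counts (0.0730) and all 9 libraries in a single model (0.0893). It was also lost without LAP library 1 (0.0532), LAP library 2 (0.193) or LIP library 2 (0.139).

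Lamc1, the gamma chain shared by most laminins, had 853, 826 and 714 CPM in EV, 847, 467 and 731 CPM in LAP and 707, 363 and 582 CPM in LIP. Its LIP values lay below those of EV, closest at 707 and 714 CPM, with a log2 fold change of -0.53 (SE 0.233, adjusted p = 0.431). Nid1, a nidogen that links laminin to collagen IV and the basement membrane gene with the highest RPKM, had 1273, 1309 and 1009 CPM in EV, 1456, 880 and 857 CPM in LAP and 1414, 663 and 553 CPM in LIP. The groups overlapped, with a log2 fold change of -0.45 in LIP against EV (SE 0.305, adjusted p = 0.654) and -0.26 in LIP against LAP (SE 0.350, adjusted p = 0.837).

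The other laminin chains and the heparan sulphate proteoglycans gave small differences. In LIP against EV the log2 fold change was 0.24 for Lama5, -0.13 for Lamb1, -0.17 for Lamb2, -0.13 for Hspg2, which encodes perlecan, and 0.15 for Agrn, which encodes agrin, with standard errors of 0.155 to 0.267 and adjusted p of at least 0.706. Agrn had 259, 231 and 214 CPM in EV and 271, 255 and 253 CPM in LIP, and Lama5 had 693, 482 and 467 CPM in EV and 651, 581 and 699 CPM in LIP. Nid2, whose exons overlap those of Rtraf on the opposite strand over 8.45% of their length, had a log2 fold change of -0.33 (SE 0.401, adjusted p = 0.755). Lama1 and Lama3 were at or below 1.15 CPM in every library.

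Of the 14 genes of fibronectin and elastic fibres, Mfap5 fell in LIP against EV, and Mfap5, Mfap4, Efemp1 and Emilin2 fell in LIP against LAP. Without adjustment, 10 were lower in each of these comparisons and 0 higher. Medians of the log2 fold change were -0.96 and -1.03. With the replicate block, 10 were lower in LIP against LAP past the threshold. Fibronectin itself, the most abundant of these mRNAs by count, was not among them.

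Mfap5 (MAGP-2), a small glycoprotein of fibrillin microfibrils, on chromosome 6 from 122505845 to 122529290 (plus strand), was the only gene among the 58 to pass the threshold in all leave-one-out fits of both comparisons. It had 2.05, 1.59 and 3.13 CPM in EV, 2.37, 2.84 and 2.44 CPM in LAP and 0.286, 0.328 and 0.0646 CPM in LIP. All LIP values lay below all others and stood for 7, 10 and 2 reads. On the log2 scale the difference was -3.32 in LIP against EV (SE 0.494, adjusted p = 0.0152) and -3.47 in LIP against LAP (SE 0.475, adjusted p = 0.00168). With filterByExpr the adjusted p was 0.117 and 0.0869, and without all libraries numbered 1 that against LAP was 0.0560.

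Mfap4, another microfibril protein, on chromosome 11 from 61485431 to 61488900 (plus strand), had 4.32, 1.66 and 0.849 CPM in EV, 7.80, 3.20 and 1.74 CPM in LAP and 1.67, 0.393 and 0.258 CPM in LIP. LIP library 1, at 1.67 CPM, lay just under LAP library 3 and within the EV values. Its change on the log2 scale was -2.48 in LIP against LAP (SE 0.586, adjusted p = 0.0471) and -1.59 in LIP against EV (SE 0.672, adjusted p = 0.412). The call was lost with the exact test (0.0542), total counts (0.0758), all 9 libraries in a single model (0.117), and without LAP library 1 (0.144), LAP library 2 (0.181) or LIP library 2 (0.141). Without all libraries numbered 1, the adjusted p against LAP was 0.0718. Its exons overlap those of Mapk7 on the opposite strand over 4.63% of their length.

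Efemp1 (fibulin-3), a short fibulin of elastic tissues, on chromosome 11 from 28853204 to 28926743 (plus strand), was the most abundant gene that passed the threshold. It had 470, 441 and 458 CPM in EV, 601, 419 and 465 CPM in LAP and 266, 110 and 214 CPM in LIP. No LIP value reached those of EV or LAP. The log2 fold change was -1.32 in LIP against LAP (SE 0.299, adjusted p = 0.0391) and -1.21 in LIP against EV (SE 0.261, adjusted p = 0.0758). Leaving out LAP library 1 (0.0777), LAP library 2 (0.115), LIP library 1 (0.0585) or LIP library 2 (0.111) ended the call against LAP. So did leaving out all libraries numbered 1 (0.271). DESeq2 (adjusted p = 0.00458) and the exact test (0.00632) called the gene against EV as well.

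Emilin2, an elastic fibre interface glycoprotein, on chromosome 17 from 71252172 to 71311978 (minus strand), had 60.4, 41.9 and 44.0 CPM in EV, 105, 46.5 and 37.4 CPM in LAP and 33.3, 9.08 and 6.78 CPM in LIP. The LIP libraries were again lowest, with library 1 close to LAP library 3. Log2 fold changes were -1.93 in LIP against LAP (SE 0.459, adjusted p = 0.0481) and -1.58 in LIP against EV (SE 0.455, adjusted p = 0.188). The call was lost with DESeq2 (0.336), the exact test (0.0603), total counts (0.0746), all 9 libraries in a single model (0.0734), and without LAP library 1 (0.0525), LAP library 2 (0.176) or LIP library 2 (0.153).

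Fbln5, a fibulin needed for elastic fibre assembly, had 339, 340 and 291 CPM in EV, 409, 271 and 236 CPM in LAP and 227, 82.6 and 107 CPM in LIP, with no overlap. Its log2 fold change was -1.22 in LIP against EV (SE 0.300, adjusted p = 0.112) and -1.12 in LIP against LAP (SE 0.323, adjusted p = 0.125, and 1.37e-07 with the block). Efemp2 (fibulin-4), which brings lysyl oxidase to elastin, had 16.0, 14 and 12.2 CPM in EV, 16.4, 11 and 9.58 CPM in LAP and 10.9, 7.37 and 8.14 CPM in LIP. LIP lay below EV with a log2 fold change of -0.68 (SE 0.221, adjusted p = 0.253), and its exons overlap those of Mus81 on the opposite strand over 4.57% of their length.

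Eln, which encodes elastin, had 32.1, 20.6 and 3.19 CPM in EV, 19.8, 12.1 and 3.07 CPM in LAP and 5.18, 2.59 and 2.16 CPM in LIP. The lowest EV and LAP libraries, both numbered 3, lay within the LIP range. On the log2 scale the difference was -2.5 in LIP against EV (SE 0.613, adjusted p = 0.112) and -1.80 in LIP against LAP (SE 0.475, adjusted p = 0.0819, and 9.1e-07 with the block). Fbn1, the main fibrillin, had a log2 fold change of -0.71 in LIP against EV (SE 0.264, adjusted p = 0.330) and lay at 514, 269 and 610 CPM in LIP against 829, 642 and 814 CPM in EV. In LIP against LAP it gave -0.73 (SE 0.323, adjusted p = 0.478, and 0.00158 with the block). Exons of Fbn1 overlap those of Gm9913 on the opposite strand over 20.1% of their length.

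Fn1 had 10150, 8045 and 8841 CPM in EV, 10374, 5016 and 8158 CPM in LAP and 9905, 4258 and 8158 CPM in LIP. Libraries numbered 2 were the lowest of each group, and the groups overlapped. Its change on the log2 scale was -0.28 in LIP against EV (SE 0.302, adjusted p = 0.722) and -0.07 in LIP against LAP (SE 0.411, adjusted p = 0.982). Emilin1 likewise gave 0.02 in LIP against EV (SE 0.330, adjusted p = 0.986). Fbln1 and Mfap2 were lower at an unadjusted p under 0.05 in both comparisons and Fbn2 in LIP against LAP, with log2 fold changes between -1.78 and -0.66. With the block, the adjusted p against LAP was 0.000459 for Fbln1, 0.0054 for Mfap2 and 4.02e-05 for Fbn2. Fbln2 passed no threshold.

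**Figure D4:**
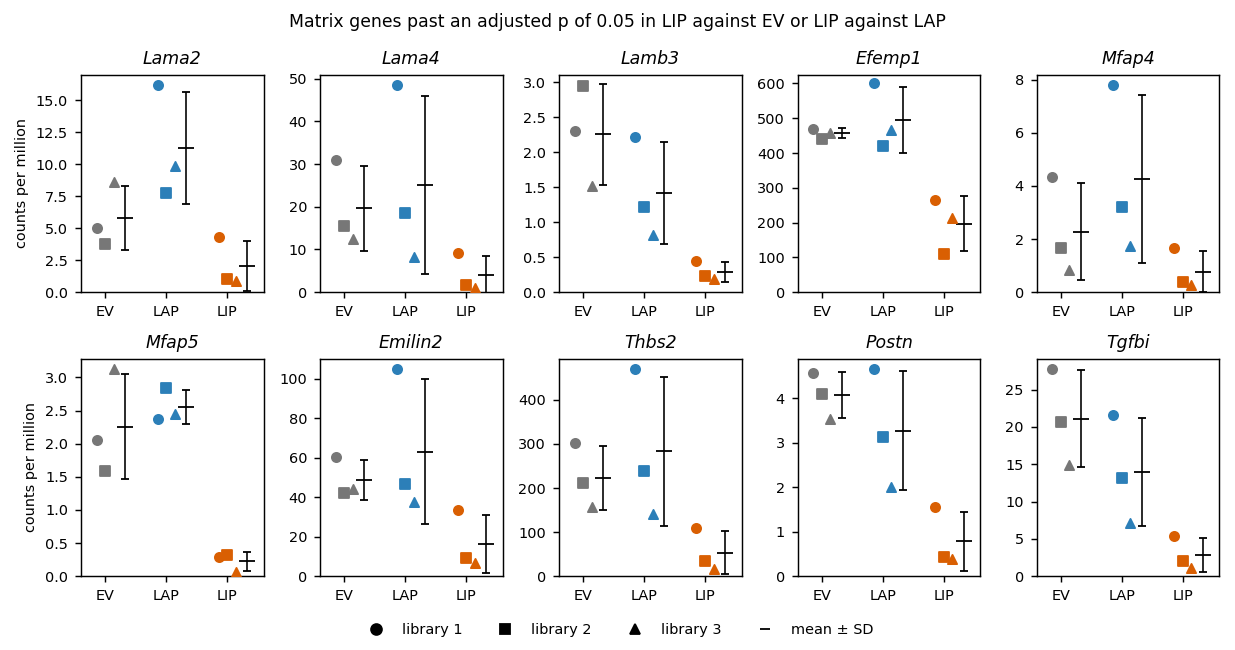
CPM (y axes, linear and starting at 0) of the 10 genes past an adjusted p of 0.05 in LIP against EV or LIP against LAP, for each EV, LAP and LIP library, with markers for the library number and bars for mean and SD. LIP has the lowest mean in every panel, with values overlapping another group for Lama2, Lama4 and Mfap4, and LAP library 1 is the highest LAP point for all but Mfap5.

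The 4 latent TGF-beta binding proteins, which hold latent TGF-beta on microfibrils, differed from each other in direction, and none passed the threshold without the block by the quasi-likelihood test, the exact test or DESeq2. Ltbp1 and Ltbp2 were lower in LIP at an unadjusted p under 0.05 in both comparisons, with log2 fold changes of -0.94 (SE 0.408) and -1.07 (SE 0.481) against EV. With the block, the adjusted p against LAP was 0.000425 for Ltbp1 and 9.42e-08 for Ltbp2. Ltbp2 ranged from 30.7 to 205 CPM within LIP and from 130 to 440 CPM within LAP. Ltbp4, which also assists elastic fibre assembly, had 1.80, 0.996 and 1.73 CPM in EV, 0.771, 0.467 and 1.41 CPM in LAP and 1.67, 1.70 and 2.65 CPM in LIP. It was the only matrix gene with higher values in LIP than in LAP at an unadjusted p under 0.05, with a log2 fold change of 1.20 (SE 0.421, adjusted p = 0.278) and no overlap. With the replicate block the difference passed the threshold, at a log2 fold change of 1.27 (adjusted p = 0.00573). Ltbp3, the most abundant of them per length, had 564, 425 and 460 CPM in EV, 583, 340 and 419 CPM in LAP and 494, 541 and 474 CPM in LIP. Its log2 fold change was 0.06 in LIP against EV (SE 0.177, adjusted p = 0.928) and 0.18 in LIP against LAP (SE 0.266, adjusted p = 0.862).

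Of the 5 lysyl oxidases, enzymes that crosslink collagen and elastin, none passed the threshold without the block, and 2 were lower past it with the block in LIP against LAP. Lox, Loxl1, Loxl2 and Loxl3 were all lower in LIP against EV at an unadjusted p under 0.05 and without overlap. Lox had 2524, 2584 and 2299 CPM in EV, 2698, 1724 and 3151 CPM in LAP and 1578, 670 and 1429 CPM in LIP. LIP lay below both groups, with a log2 fold change of -1.01 against EV (SE 0.284, adjusted p = 0.175) and -1.03 against LAP (SE 0.361, adjusted p = 0.278). With the replicate block, the adjusted p of Lox against LAP was 2.63e-06. DESeq2 called Lox against EV (adjusted p = 0.0364), and the exact test gave 0.0529.

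Loxl1, which acts on elastin, had 491, 448 and 390 CPM in EV, 501, 294 and 333 CPM in LAP and 337, 201 and 257 CPM in LIP, a log2 fold change of -0.74 against EV (SE 0.204, adjusted p = 0.166). Loxl2 had 630, 671 and 449 CPM in EV, 686, 460 and 547 CPM in LAP and 422, 241 and 373 CPM in LIP, a log2 fold change of -0.76 against EV (SE 0.232, adjusted p = 0.216). Against LAP, Loxl2 had a log2 fold change of -0.69 (SE 0.277, adjusted p = 0.384, and 0.00352 with the block), whereas Loxl1 overlapped between LIP and LAP. Loxl3 had 250, 243 and 188 CPM in EV, 249, 172 and 140 CPM in LAP and 185, 180 and 90.6 CPM in LIP. The closest EV and LIP values of Loxl3 were 188 and 185 CPM, its log2 fold change was -0.58 (SE 0.244, adjusted p = 0.413), and 11.6% of its exon length overlaps with Htra2 on the opposite strand. Loxl4 was at or below 0.370 CPM in every library.

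Among the 10 proteoglycans, none passed the threshold in the fit without the block, and 8 were lower at an unadjusted p under 0.05 in each of LIP against EV and LIP against LAP. Medians were -1.02 and -1.04. With the block, 8 of the 10 were lower in LIP against LAP past the threshold. In LIP against EV, DESeq2 called Lum and Prelp (adjusted p = 0.00216 and 0.00377), and the exact test called these with Fmod and Aspn (0.0242 and 0.0186). Bgn, which encodes biglycan and had the highest level of them, had 3626, 3398 and 3170 CPM in EV, 4551, 2281 and 2687 CPM in LAP and 3156, 1210 and 1950 CPM in LIP. LIP library 1 came within 14 CPM of the lowest EV library, and the log2 fold change was -0.69 against EV (SE 0.299, adjusted p = 0.427) and -0.58 against LAP (SE 0.383, adjusted p = 0.746, and 0.015 with the block). Dcn, which encodes decorin, lay far below Bgn, with 27.7, 19.4 and 8.55 CPM in EV, 24.5, 16.7 and 12.5 CPM in LAP and 11.9, 3.96 and 9.98 CPM in LIP. LIP and LAP did not overlap, with a log2 fold change of -1.04 (SE 0.345, adjusted p = 0.231, and 0.000124 with the block).

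Fmod, which encodes fibromodulin and binds collagen I, had 102, 61.3 and 71.5 CPM in EV, 63.4, 29.9 and 24.3 CPM in LAP and 21.7, 4.75 and 31.9 CPM in LIP. LIP lay below EV without overlap, and the LAP mean lay between theirs. The log2 fold change was -2.01 in LIP against EV (SE 0.472, adjusted p = 0.101) and -1.0 in LIP against LAP (SE 0.447, adjusted p = 0.485). Prelp, which anchors basement membranes to connective tissue, had 4.57, 2.95 and 2.14 CPM in EV, 2.96, 1.4 and 1.15 CPM in LAP and 0.653, 0.328 and 1.29 CPM in LIP. Its order was the same, with a log2 fold change of -2.08 in LIP against EV (SE 0.455, adjusted p = 0.0804) and -1.26 in LIP against LAP (SE 0.481, adjusted p = 0.348). With the block, the adjusted p against LAP was 6.31e-05 for Fmod and 0.0149 for Prelp. In the libraries numbered 3, however, LIP lay above LAP for both, at 31.9 and 24.3 CPM for Fmod and 1.29 and 1.15 CPM for Prelp.

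Vcan, which encodes the large hyaluronan-binding proteoglycan versican, had 2.49, 2.32 and 2.11 CPM in EV, 3.39, 1.80 and 2.33 CPM in LAP and 1.39, 1.44 and 0.807 CPM in LIP. LIP was the lowest group without overlap, at a log2 fold change of -0.93 against EV (SE 0.315, adjusted p = 0.283) and -1.04 against LAP (SE 0.378, adjusted p = 0.304, and 0.0251 with the block). Lum, which encodes lumican, had 0 counts in every LIP library and 1.4, 0.517 and 0.0879 CPM in EV. With 3 counts per library as the floor and total-count scaling, its mean was at least 6.12-fold lower in LIP than in EV. Against LAP the mean was at least 2.46-fold lower. In LAP it had 0.678, 0.0359 and 0.111 CPM, or 22, 1 and 3 counts, so this bound rests on LAP library 1. EV library 3 also held 3 counts. The quasi-likelihood fits, which use no such floor, gave an adjusted p of 0.0925 against EV and 0.0936 against LAP (0.0115 with the block). Aspn, a fibril-binding relative of decorin, was seen in 1 of the 3 LIP libraries, at 0.122 CPM, with an adjusted p against LAP of 0.108 (0.00038 with the block). Ogn, which encodes osteoglycin, was lower in LIP at an unadjusted p under 0.05, at -0.85 against EV (SE 0.351) and -1.11 against LAP (SE 0.331, adjusted p = 0.147, and 7.51e-06 with the block). It had 31.7, 12.7 and 43.9 CPM in LIP and 81.6, 69.3 and 42.8 CPM in LAP, so LIP was not lower in the libraries numbered 3. Podn lay above 0, at 0.21 and 0.41 (adjusted p = 0.841 and 0.763).

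Among the 12 matricellular genes, Postn and Tgfbi fell in LIP against EV, and Postn, Tgfbi and Thbs2 fell in LIP against LAP. Without adjustment, 7 were lower in LIP against EV and 6 in LIP against LAP, and 0 were higher. The medians were -0.75 and -1.16. With the block, 9 were lower in LIP against LAP past the threshold. Postn and Tgfbi encode periostin and TGFBI, the only fasciclin-domain proteins of the list.

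Tgfbi, a TGF-beta-induced adhesion protein, on chromosome 13 from 56609523 to 56639562 (plus strand), had 27.8, 20.6 and 14.9 CPM in EV, 21.6, 13.1 and 7.14 CPM in LAP and 5.43, 2.10 and 1.13 CPM in LIP. Each LIP value was below every value of the other groups. Log2 fold changes were -2.89 in LIP against EV (SE 0.454, adjusted p = 0.0178) and -2.27 in LIP against LAP (SE 0.463, adjusted p = 0.0242). The call against EV was lost without EV library 2 (0.0751) or LIP library 2 (0.0792), and that against LAP without LAP library 2 (0.138) or LIP library 2 (0.0698). Without all libraries numbered 1, the adjusted p against LAP was 0.0560.

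Postn, which binds collagen and fibronectin, on chromosome 3 from 54361109 to 54391037 (plus strand), had 4.57, 4.10 and 3.54 CPM in EV, 4.66, 3.13 and 2.0 CPM in LAP and 1.55, 0.426 and 0.388 CPM in LIP. LIP library 1 was the closest to the other groups, still without overlap. On the log2 scale the difference was -2.40 in LIP against EV (SE 0.457, adjusted p = 0.0481) and -2.06 in LIP against LAP (SE 0.483, adjusted p = 0.0459). Against EV the call was lost without EV library 1 (0.0588), EV library 2 (0.161) or LIP library 2 (0.136), and with total counts (0.0736) or DESeq2's size factors (0.0537). Against LAP it was lost without LAP library 1 (0.10), LAP library 2 (0.205) or LIP library 2 (0.132), and with total counts (0.0715). Without all libraries numbered 1, the adjusted p against LAP was 0.0774.

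Thbs2, an antiangiogenic thrombospondin, on chromosome 17 from 14665500 to 14694235 (minus strand), had 301, 212 and 157 CPM in EV, 470, 239 and 140 CPM in LAP and 109, 35.3 and 16.1 CPM in LIP. The highest LIP value, in library 1, lay under the lowest EV and LAP values, both in library 3. Its change on the log2 scale was -2.38 in LIP against LAP (SE 0.501, adjusted p = 0.0266) and -2.06 in LIP against EV (SE 0.511, adjusted p = 0.116). The call was lost with DESeq2 (0.237) and without LAP library 2 (0.138) or LIP library 2 (0.0829).

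Thbs3 had 45.6, 39.3 and 42.3 CPM in EV, 72.8, 63.2 and 38.7 CPM in LAP and 32.4, 33.9 and 16.9 CPM in LIP, and 6.59% of its exon length overlaps with Mtx1 on the opposite strand. LIP was the lowest group, with a log2 fold change of -0.61 against EV (SE 0.233, adjusted p = 0.345) and -1.05 against LAP (SE 0.278, adjusted p = 0.0824, and 3.76e-06 with the block). Matn2, a filament-forming matrilin, had 47.2, 53.2 and 40.1 CPM in EV, 62.7, 46.0 and 48.1 CPM in LAP and 34.1, 22.9 and 26 CPM in LIP. It too was lowest in LIP without overlap, at -0.76 against EV (SE 0.189, adjusted p = 0.116) and -0.90 against LAP (SE 0.231, adjusted p = 0.0696, and 0.000105 with the block). DESeq2 called Matn2 against EV (adjusted p = 0.0338) and against LAP (0.0386).

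Sparc had 7674, 7686 and 5445 CPM in EV, 9475, 6951 and 5776 CPM in LAP and 5486, 2445 and 4633 CPM in LIP. LIP library 1 lay just above EV library 3, and LIP and LAP did not overlap. The log2 fold change was -0.73 against EV (SE 0.301, adjusted p = 0.399) and -0.80 against LAP (SE 0.386, adjusted p = 0.540, and 0.000392 with the block). Tnc and Thbs1 varied widely between libraries of the same group. Tnc, which encodes tenascin-C, had 756, 117 and 30.5 CPM in LIP and 1509, 468 and 398 CPM in LAP, and Thbs1 had 3017, 1756 and 505 CPM in LIP. Their log2 fold changes in LIP against EV were -0.73 (SE 0.751) and -0.48 (SE 0.463), both with an adjusted p of 0.706. Against LAP, Tnc had a log2 fold change of -1.38 (SE 0.703, adjusted p = 0.578), and -2.19 with the block (adjusted p = 6.54e-13). Without the block, leaving out single libraries moved it between -3.42 and -0.49. Thbs1 gave -0.38 against LAP (SE 0.459, adjusted p = 0.812), and -0.64 with the block (adjusted p = 0.0358). In LAP it had 3378, 1815 and 1760 CPM, so LIP and LAP lay close in the libraries numbered 1 and 2 and apart in those numbered 3. Ecm1 was lower at -1.11 against EV (SE 0.430, adjusted p = 0.357) and -1.26 against LAP (SE 0.441, adjusted p = 0.278, and 0.000572 with the block), and Comp and Spp1 were at or below 0.983 CPM.

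LAP was compared with EV to ask what the long isoform changes. In this comparison 0 of the 58 genes passed an adjusted p of 0.05 (edgeR quasi-likelihood), beside 0.0606% of the 18156 genes tested, and the edgeR exact test and DESeq2 also called 0. At an unadjusted p under 0.05, 3 were higher and 2 lower in LAP, 5 in all, beside 3.27% of all genes in either direction, and DESeq2 and the exact test each gave 3. The log2 fold change was below 0 for 31 genes and above 0 for 27, with a median of -0.06 against 0.02 over all genes. The smallest adjusted p was 0.918. EV libraries are shared with LIP against EV, and values of LAP with LIP against LAP.

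The genes higher in LAP at that level were Lama2, with a log2 fold change of 0.95 (SE 0.311), Omd, which encodes osteomodulin, at 1.04 (SE 0.438), and Thbs3 at 0.45 (SE 0.202). Omd had 5.53 CPM in LAP library 2 against 1.76 and 1.18 CPM in the other LAP libraries and 1.43, 1.33 and 1.29 CPM in EV. Its log2 fold change was 0.13 without LAP library 2. Those lower were Fmod at -1.0 (SE 0.296) and Prelp at -0.81 (SE 0.363). Groups overlapped for all 5. LAP and EV libraries of the same number deviated together, and with the replicate block 1 gene passed the threshold, beside 0.297% of all genes in either direction. This was Fmod, with a log2 fold change of -1.10 (adjusted p = 0.00131), and it was lower in LAP than in EV in all 3 numbered pairs. Without LAP library 1 the count of genes past the threshold was also 1, and 13 had an unadjusted p under 0.05, the same number as without LAP library 3, while 9 and 8 had it without EV library 1 and EV library 3. None of the genes that fell in LIP against EV passed the threshold here (adjusted p of at least 0.918, edgeR quasi-likelihood). Log2 fold changes were 0.16 for Mfap5 (SE 0.274) and -0.32 for Postn (SE 0.283). Lamb3 gave -0.66 (SE 0.358, unadjusted p = 0.086) and Tgfbi -0.60 (SE 0.319, unadjusted p = 0.0785).

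Collagen chains are the genes most like these. Of 43 collagen chains tested in LIP against EV, 1 was lower at an adjusted p under 0.05 and, without adjustment, 14 were lower and 1 was higher, with a median log2 fold change of -0.41. In LIP against LAP, 2 were lower past the threshold, 13 were lower at an unadjusted p under 0.05, and the median was -0.23, while 13 were lower past the threshold with the block. The difference between the 2 sets of genes was not tested. Col8a2, the collagen VIII chain with the smallest p, had a log2 fold change of -2.18 in LIP against EV (SE 0.323, adjusted p = 0.0152) and -1.50 in LIP against LAP (SE 0.339, adjusted p = 0.0386).

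Among 56 other matrix proteins tested in LIP against EV, 0 passed the threshold (edgeR quasi-likelihood), 14 were lower and none higher by the unadjusted p, and the median was -0.48. In LIP against LAP, 6 of 58 tested were lower past the threshold and 0 higher, which became 14 and 1 with the block. Examples by the smallest p against EV were Dpt, which encodes dermatopontin, Cthrc1 and Spon2. Dpt had a log2 fold change of -3.24 against EV (SE 0.680, adjusted p = 0.0707) and -3.21 against LAP (SE 0.616, adjusted p = 0.0185). Cthrc1 had 117 ± 29.3 CPM in EV, 194 ± 97.7 CPM in LAP and 50.4 ± 20.1 CPM in LIP (SD, n = 3 each), with -1.22 against EV (adjusted p = 0.0883) and -1.91 against LAP (adjusted p = 0.00682).

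Of 37 genes for the synthesis of glycosaminoglycans, the sugar chains of proteoglycans, 0 passed the threshold in LIP against EV or LIP against LAP (edgeR quasi-likelihood). By the unadjusted p, 11 were lower and 1 higher against EV, with a median of -0.35, and 6 were lower and 1 higher in LIP against LAP. With the block, 5 were lower in LIP against LAP past the threshold. Chst3, a chondroitin sulphotransferase, gave -1.60 (SE 0.396, adjusted p = 0.115) and Dse, the dermatan sulphate epimerase, -0.59 (SE 0.169, adjusted p = 0.186) in LIP against EV. Of 19 surface proteoglycans and matrix receptors tested, 1 was lower past the threshold in LIP against EV and 1 in LIP against LAP, and by the unadjusted p 10 and 9 were lower, and with the block 10 passed as lower in LIP against LAP. The first was Tgfbr3, which encodes betaglycan, with 136, 117 and 150 CPM in EV, 149, 88.6 and 111 CPM in LAP and 75.6, 51.4 and 35.2 CPM in LIP (log2 fold change -1.31 against EV, SE 0.237, adjusted p = 0.0397). The second was the glypican Gpc1, at -1.35 against LAP (SE 0.325, adjusted p = 0.0488). In LAP against EV, 0 genes of these 3 lists and 0 collagen chains passed the threshold, and 0 to 3 per list and direction had an unadjusted p under 0.05.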

How the data were processed

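RNA-seq was done on 9 libraries of Cebpb-ko MEFs, 3 each with EV, LAP or LIP. The authors deposited raw counts of reads per gene symbol, without normalization. Single-end reads of 50 bases from an unstranded kit had been aligned to mm10 and counted, and the submitters' processing notes list bcl2fastq 1.8.3, TopHat 1.4.1 and HTSeq 0.5.4. The handling of reads with several alignments and the strand setting are not given in the sources used here, so reads of overlapping genes cannot be told apart. All 9 columns were used and matched to groups by their labels.

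Each comparison used its 6 libraries and the genes detected in them with 1 count or more. TMM was used for scaling, and groups were tested with the quasi-likelihood test of edgeR 4.0.16 (R 4.3.3) without covariates. P-values were adjusted by Benjamini-Hochberg over all genes tested, with a threshold of 0.05. Standard errors were derived from the fold change and the F value. Single shares were compared by an exact permutation test (scipy 1.17.1). Exon lengths, positions and overlaps came from GENCODE M21 (GRCm38), promoters from RefSeq. The test was checked on simulated counts that were drawn independently for each library. That check does not cover deviations shared by same-numbered libraries.

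Members and lists were chosen with earlier results of these data known. Given in full were genes past the threshold in any comparison, genes at an unadjusted p under 0.05 with no overlap of groups and a mean of at least 20 counts (up to 5 per role by p), and the gene with the highest RPKM of each role, 29 in all. Some further genes were named after their values were seen.

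The labels number the libraries 1 to 3 in each group. Over 11535 genes whose mean was 20 counts or more, deviations of log2(CPM + 0.5) from the group mean had an r between same-numbered libraries of 0.223 to 0.546 in LAP and EV and of 0.421 to 0.577 in LIP and LAP, all over 0.1, and these were taken as paired. In LIP and EV, r was -0.119 to 0.311, not over 0.1 in every pair, and they were not. The rule was applied to each comparison separately, although LIP and EV were each taken as paired with LAP. Whether same-numbered LIP and EV libraries share a factor was not tested further. The alternatives comprised the edgeR exact test, DESeq2 1.42.0 and its size factors, scaling by total counts, filterByExpr, a single model of all 9 libraries, the replicate block and single libraries left out. Fits without the libraries numbered 1 or 3 were added after seeing the data.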

Additional observations from a re-analysis of the deposited data

How the results depend on the processing

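The medians of the log2 fold change kept their sign under every alternative in LIP against EV (-1.0 to -0.61 with single libraries left out) and LIP against LAP (-1.12 to -0.56, the last without LAP library 1). Numbers of genes past the threshold did not keep within 1.5 times. In LIP against EV, 4 genes became 10 with DESeq2, 13 with the edgeR exact test, 0 with filterByExpr, 10 without the libraries numbered 1, 14 without those numbered 3 and 1 to 15 with single libraries left out, and 35 genes at an unadjusted p under 0.05 became 23 with filterByExpr and 22 to 41 with single libraries left out. In LIP against LAP, 10 became 5 with total counts, 0 with filterByExpr, 4 and 19 without the libraries numbered 1 and 3, and 1 to 20 with single libraries left out. In LAP against EV, 0 became 1 without the libraries numbered 1, 1 without those numbered 3 and 0 to 1 with single libraries left out. There, 5 genes at an unadjusted p under 0.05 became 3 with DESeq2, 3 with the exact test, 2 with filterByExpr, 2 with all 9 libraries in a single model, 8 and 12 without the libraries numbered 1 and 3, and 4 to 13 with single libraries left out. Over all genes, lower calls in LIP against EV were 115 of 17878 without the libraries numbered 1 and 276 of 17298 without those numbered 3. In LIP against LAP they were 18 of 17800 and 337 of 17438. In LAP against EV, 14 were lower and 15 higher of 17701, and 22 lower and 31 higher of 17295. Shares over all genes are not given for the other settings of this paragraph. The cause of the changes in these numbers was not tested.

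With the replicate number as a block, 35 genes passed in LIP against LAP, beside 871 lower and 312 higher of the 18166 genes tested. In LAP against EV 1 passed, beside 0.297% of all genes. There, 13 had an unadjusted p under 0.05, beside 468 lower and 636 higher of 18156. In LIP against EV 19 passed, beside 402 lower and 65 higher of 18203. In that comparison the numbers are not shown to pair the libraries, and 4 of the 6 libraries correlated best with their own number.

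Of 57 genes (Thbs4 left out), 11 in LIP against EV, 12 in LIP against LAP and 30 in LAP against EV changed sign in at least 1 fit with a single library left out, and 2, 0 and 5 did so with the replicate block, among them Emilin1 in LIP against EV (0.02 without and -0.16 with it). The other alternatives changed the sign of 8, 7 and 19. None of the genes past the threshold in LIP against EV or LIP against LAP was among them in that comparison. Among the genes with values given in full in the comparison, signs changed for Ltbp3 in LIP against EV (range -0.02 to 0.19, negative without EV or LIP library 2), Mfap5 in LAP against EV (-0.05 to 0.47, negative without EV library 2), and Nid1 (-0.80 to 0.04, positive without LAP library 1) and Fn1 (-0.33 to 0.21, positive without LAP library 1, LAP library 3 or LIP library 2) in LIP against LAP. Genes with few counts, such as Lum, Aspn and Mfap5, are limited by depth.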
